A study of Mus musculus with 4 samples.

Results

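The matrix metalloproteinases and their tissue inhibitors were read as a set of 8 genes, Mmp3, Mmp9, Mmp10, Mmp13, Mmp14, Timp1, Timp2 and Timp3. All probe sets that the platform annotation assigns to 1 of these symbols were taken, which gave 19 of the 45037 probe sets that are no array controls. The set was selected on the log2 difference between the Cre lines, above all that of Mmp3 and Mmp13, so its values in that comparison are a description and carry no test. The arrays hold basal keratinocytes of CD-1 mouse tail epidermis, sorted as living, YFP-positive cells with high alpha6 integrin and no CD34 on their surface. InvCREER/RosaYFP mice (2 arrays) received 10 ug of tamoxifen, and K14CREER/RosaYFP mice (2 arrays) received 1 ug. In both lines tamoxifen releases a Cre recombinase that switches on YFP from the Rosa locus, in cells where the involucrin promoter (InvCREER) or the keratin 14 promoter (K14CREER) is active. The Cre driver therefore decides which basal cells are marked, and it cannot be told apart from the tamoxifen dose. The sample titles give 3.5 days after induction and the treatment protocol gives 4 days. Neither the age of the mice nor whether replicate arrays come from separate or pooled animals is given, and p-values here cover only the spread between these arrays, which could be technical.

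Matrix metalloproteinases are zinc-dependent proteases that cut collagens, laminins and other proteins around cells. They are made as inactive proenzymes, and once active they are blocked by TIMPs, which bind the active site. In skin they are best known from wounds, where keratinocytes at the edge and cells of the dermis make them while the epidermis moves over new matrix. In intact epidermis most of them are made at low levels.

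Mmp13, Mmp3 and Mmp10 belong to a cluster of 10 Mmp genes on mouse chromosome 9. In the RefSeq order of GRCm38.p6 the cluster runs Mmp13, Mmp12, Mmp1b, Mmp3, Mmp1a, Mmp10, Mmp8, Mmp27, Mmp20 and Mmp7. The promoter windows of these 3 members are shown because the first 2 had the largest differences of the set and Mmp10, their neighbour, did not. Each window runs from 250 bases before the RefSeq start of the gene to 50 bases after it, on the plus strand of GRCm38.p6, at chr9:7445572-7445871 for Mmp3, chr9:7272264-7272563 for Mmp13 and chr9:7502092-7502391 for Mmp10. Capitals mark TGAGTCA or its reverse complement TGACTCA, the motif bound by AP-1, a dimer of FOS and JUN proteins.
Mmp3: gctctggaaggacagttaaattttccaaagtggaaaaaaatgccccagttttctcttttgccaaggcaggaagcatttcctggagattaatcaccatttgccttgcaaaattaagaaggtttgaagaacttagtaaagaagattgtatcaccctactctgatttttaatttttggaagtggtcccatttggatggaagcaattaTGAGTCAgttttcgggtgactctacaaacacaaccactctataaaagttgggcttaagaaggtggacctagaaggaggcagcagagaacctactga
Mmp13: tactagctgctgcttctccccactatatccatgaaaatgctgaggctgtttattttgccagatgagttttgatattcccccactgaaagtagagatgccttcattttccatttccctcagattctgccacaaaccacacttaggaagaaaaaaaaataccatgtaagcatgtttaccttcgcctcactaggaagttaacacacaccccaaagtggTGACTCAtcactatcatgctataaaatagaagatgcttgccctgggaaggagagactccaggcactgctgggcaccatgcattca
Mmp10: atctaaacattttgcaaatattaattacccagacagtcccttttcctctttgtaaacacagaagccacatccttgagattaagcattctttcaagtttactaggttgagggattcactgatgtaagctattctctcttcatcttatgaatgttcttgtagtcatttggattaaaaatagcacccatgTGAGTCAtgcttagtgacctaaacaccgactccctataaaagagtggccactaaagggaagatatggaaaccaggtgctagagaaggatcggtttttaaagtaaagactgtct
The motif starts 46 bases before the start in Mmp3, 35 in Mmp13 and 63 in Mmp10. It was found in 1709 of all 32851 mouse promoter windows of this length (5.20%). Of the 8 members 7 matched the RefSeq promoter table, all but Mmp9, and Mmp3, Mmp10 and Mmp13 were the 3 that held the motif. TATAAA, read on the gene's strand, stands between the motif and the start in each of the 3 windows shown, and occurs in 8.32% of all windows. Of the 10 cluster genes 7 had a window with the motif, among them Mmp12, Mmp1a, Mmp1b and Mmp7. A match is a description of the letters and shows no binding.

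The arrays were alike in scale, with medians of 5.41 to 5.44 in log2 units, and across the tested probe sets the replicate arrays correlated at 0.967 (InvCREER) and 0.969 (K14CREER). The basal keratin gene Krt14 was at 13.82 and 13.85 on the InvCREER arrays and 14.14 and 14.17 on the K14CREER arrays, and Itga6 was at 11.62 to 12.41 on all 4. The suprabasal keratin gene Krt10 was bright too, at 14.07 and 14.11 on the InvCREER arrays and 13.31 and 13.44 on the K14CREER arrays. Ivl, the involucrin gene, was at 4.78 and 5.06 on the InvCREER arrays and 4.58 and 6.23 on the K14CREER arrays, and overlapped between the lines. Cd34 was at 3.59 to 3.88 on 3 arrays and at 6.07 on K14CREER 1. InvCREER 1 stood apart from the other 3 arrays in Xist, at 12.56 against 5.44 to 8.26, and in the Y-linked gene Uty, at 4.70 against 7.19 to 7.85. InvCREER 1 also had the highest 3' to 5' log2 ratio of the Actb control probe sets, a sign of RNA quality, at 1.24 against 0.68 to 0.94. Values are therefore given for every array. A lower value of a gene on such arrays can mean fewer cells that express it or less of its RNA per cell, which cannot be told apart.

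Mmp3, which encodes stromelysin-1, a protease that cuts many matrix proteins and activates other MMP proenzymes, had 1 probe set. It was at 5.68 and 6.17 on the InvCREER arrays, against 8.19 and 8.55 on the K14CREER arrays. The lines did not overlap and lay 2.01 apart at their nearest, and the difference of the means was -2.44 log2 units (5.43-fold lower in InvCREER cells). Mmp13, the gene of collagenase-3, which cleaves fibrillar collagen, was at 4.59 and 4.21 in InvCREER cells and at 7.29 and 6.47 in K14CREER cells. Its lines lay 1.88 apart at their nearest, and the difference of its means was -2.48 (5.58-fold lower in InvCREER cells). Both InvCREER values of Mmp13 lay under 5.42, the median of all probe sets and the value below which probe sets were set aside as dim. Background may thus limit the size of its difference. Mmp3 was lowest on InvCREER 1 and highest on K14CREER 2, whereas Mmp13 was lowest on InvCREER 2 and highest on K14CREER 1. Leaving out any 1 array moved the difference of Mmp3 between -2.69 and -2.19 and that of Mmp13 between -2.89 and -2.07.

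**Figure D1:**
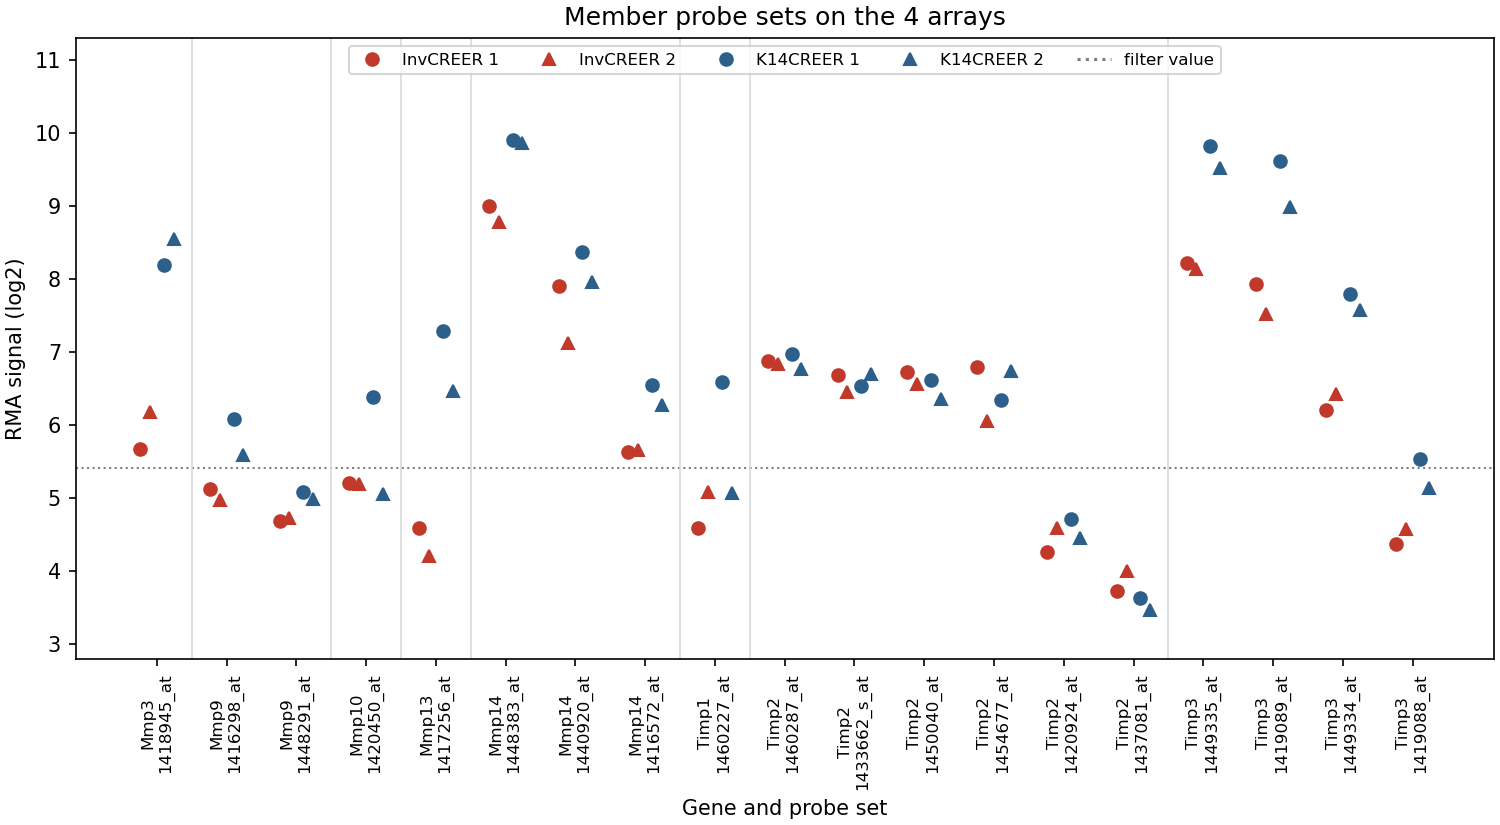
RMA signal (log2, vertical axis) of each of the 19 probe sets of the 8 genes (horizontal axis) on the InvCREER arrays (red) and the K14CREER arrays (blue), with circles for array 1, triangles for array 2 and a dotted line at the filter value of 5.42. Mmp3, Mmp13 and Timp3 show red points well below blue ones, while the points of Timp2 mix, and heights may be compared within a probe set but not between probe sets.

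Mmp10, another stromelysin gene, did not share this pattern. It was at 5.21 and 5.20 in InvCREER cells and at 6.38 and 5.05 in K14CREER cells. K14CREER 1 alone was raised, and K14CREER 2 lay below both InvCREER arrays. Its mean difference was -0.51, and it was 0.15 without K14CREER 1. Along the chromosome 9 cluster, the other genes analysed, apart from Mmp7, were near the bottom of the scale in both lines. Mmp12, Mmp1a, Mmp1b, Mmp8 and Mmp20 ranged from 3.33 to 4.37 over all arrays, below the filter. Mmp1b was at 3.44 and 3.41 in InvCREER cells and at 3.88 and 3.95 in K14CREER cells. Mmp1a was at 3.34 and 3.33 against 3.55 and 3.66. At these dim values both were lower in InvCREER without overlap, as were 21.0% of all probe sets, while Mmp12, Mmp8 and Mmp20 overlapped. Mmp7, matrilysin, was at 5.99 and 5.74 in InvCREER cells and 5.81 and 5.66 in K14CREER cells. Mmp27 was not analysed here. Mmp13 and Mmp3 were thus the cluster genes with both K14CREER arrays above the filter value and a gap between the lines, while Mmp12, Mmp1a and Mmp1b, which also hold the motif shown above in a promoter window, were dim throughout.

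**Figure D2:**
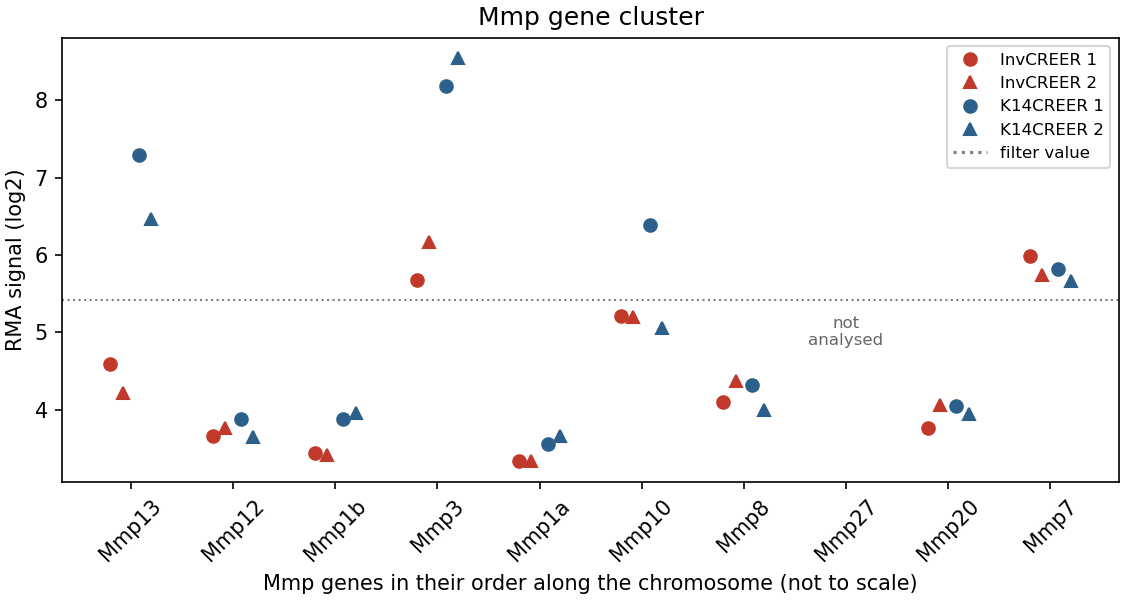
RMA signal (log2, vertical axis) of the Mmp genes of chromosome 9 in their order along the chromosome (horizontal axis, not to scale), with InvCREER arrays in red and K14CREER arrays in blue, circles for array 1 and triangles for array 2. The dotted line is the filter value of 5.42; Mmp13 and Mmp3 have both blue points above it and apart from the red ones, and Mmp27 was not analysed here.

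Mmp14 encodes MT1-MMP, a membrane-anchored protease that cuts collagen at the cell surface and activates the proenzyme of MMP2. Its brightest probe set was at 9.00 and 8.78 in InvCREER cells and at 9.90 and 9.86 in K14CREER cells, a difference of -0.99 (1.98-fold lower in InvCREER). The second was at 7.91 and 7.13 against 8.37 and 7.96, and the third at 5.63 and 5.67 against 6.54 and 6.28, again with InvCREER first. All 3 probe sets were lower in InvCREER without overlap, with differences of -0.65 to -0.99, although the lines lay 0.055 apart in the second. Mmp9, the gene of gelatinase B, was dimmer. Its brighter probe set was at 5.13 and 4.97 in InvCREER cells and 6.08 and 5.59 in K14CREER cells, and the other at 4.69 and 4.73 against 5.08 and 4.99. Both were lower in InvCREER without overlap, with differences of -0.78 and -0.33, at values close to or under the filter.

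Among the inhibitors, Timp3 was lower in InvCREER on all of its 4 probe sets. TIMP3 is held in the matrix and blocks, beside MMPs, several ADAM and ADAMTS proteases. The brightest probe set was at 8.22 and 8.14 in InvCREER cells and at 9.82 and 9.51 in K14CREER cells, and the next at 7.93 and 7.53 against 9.62 and 8.98. The third was at 6.20 and 6.43 against 7.79 and 7.58, and the dimmest, under the filter, at 4.37 and 4.57 against 5.53 and 5.13. In each of them both InvCREER arrays lay under both K14CREER arrays. The 3 brighter probe sets differed by -1.37 to -1.57 (2.58-fold to 2.97-fold lower in InvCREER) and the dimmest by -0.86. The lines lay 1.06 to 1.29 apart at their nearest in the 3 brighter ones.

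Timp2 and Timp1 differed from Timp3 in this respect. TIMP2 forms the bridge through which MT1-MMP activates pro-MMP2, and is an inhibitor of both. The brightest of its 6 probe sets was at 6.88 and 6.84 in InvCREER cells and at 6.97 and 6.77 in K14CREER cells. The other 3 tested probe sets had differences of -0.11 to 0.16, and the lines overlapped in all 4. Over the 4 possible pairs of an InvCREER with a K14CREER array, the brightest probe set differed by -0.13 to 0.11. Of the 2 dim probe sets 1 overlapped and 1 was higher in InvCREER without overlap, by 0.32. Timp1, which encodes an inhibitor of most soluble MMPs, had 1 probe set, below the filter. It was at 4.59 and 5.08 in InvCREER cells and at 6.59 and 5.08 in K14CREER cells, so that K14CREER 1 stood alone above the other arrays. Its difference was -0.24 without K14CREER 1 and -1.76 without K14CREER 2.

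**Figure D3:**
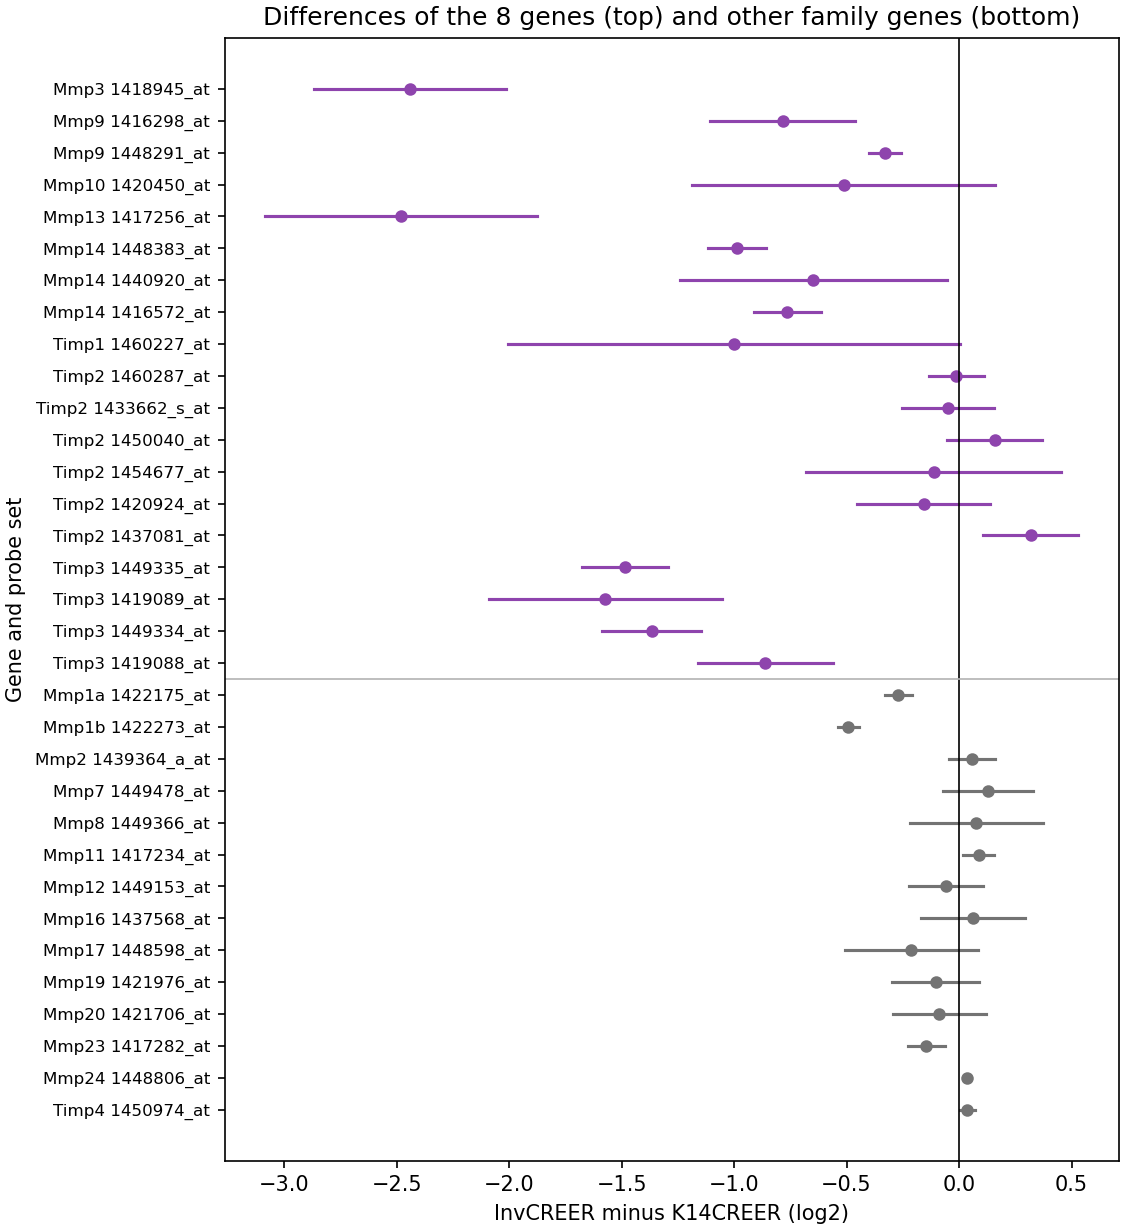
InvCREER minus K14CREER (log2, horizontal axis) for the 19 probe sets of the 8 genes (purple, top) and for the brightest probe set of each other Mmp gene and Timp4 (grey, bottom); points are differences of the line means, and bars run from the lowest to the highest of the 4 differences between an InvCREER and a K14CREER array. The bars of Mmp3, Mmp13, Mmp14, Mmp9 and Timp3 lie left of 0, while those of Mmp10, Mmp2 and most Timp2 probe sets cross it.

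Over the 19 probe sets, 11 were lower in InvCREER without overlap, 7 overlapped and 1 was higher without overlap, where 21.0% of all probe sets were lower without overlap. The 11 covered 5 genes, Mmp3, Mmp9, Mmp13, Mmp14 and Timp3, and in each of these 5 genes every probe set was lower. The filter on dim values kept 14 of the 19 probe sets, from 7 of the 8 genes, leaving out that of Timp1. Mmp13, Mmp10 and the brighter Mmp9 probe set passed it through K14CREER alone, as their InvCREER means lay under 5.42. In the fit over all 22519 tested probe sets (limma, Benjamini-Hochberg adjusted p under 0.05), 3 of the 14 were called lower, 1 each of Mmp3, Mmp13 and Timp3, where 0.275% of all tested probe sets were called lower. Since this contrast led to the choice of the genes, nothing is read from that count. The count also moved when 1 array was left out. Mmp3, Mmp13, Mmp14, Mmp9 and Timp3 kept the sign of their differences with any 1 array left out. That outcome was fixed in advance, because the lines did not overlap in these genes.

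The genes with the most similar pattern were found by the Euclidean distance over the 4 arrays between log2 values centred on each gene's own mean, among 11269 other tested genes. Nearest to Mmp3 were Sparc, at a distance of 0.41, Dkk3 at 0.45 and Slc6a2 at 0.55. Nearest to Mmp13 were Angptl7, at 0.27, Fscn1 at 0.32 and Dusp6 at 0.52. Sparc encodes a matrix-binding glycoprotein, Fscn1 an actin-bundling protein and Dusp6 a phosphatase that acts on ERK. Mmp3 and Mmp13 were not each other's nearest, at a distance of 1.05. Among the 11269 genes Mmp13 was at rank 45 in nearness to Mmp3, and Mmp3 at rank 37 in nearness to Mmp13. With 4 arrays, of which InvCREER and K14CREER are 2 each, likeness mainly reflects the size of the difference between the lines.

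The other genes of the family, those left after the set had been chosen on this same comparison, were tested in the same fit. A lack of calls among them may follow from that choice, so nothing is read from their counts against all tested genes. Of 19 further genes, the other Mmp genes and Timp4, 14 had a named probe set and 4 passed the filter, Mmp2, Mmp7, Mmp17 and Mmp24. Of the 4, 0 were called by limma and 0 had an unadjusted p under 0.05, where limma called 0.373% of tested genes lower and 0.958% higher and 16.1% had an unadjusted p under 0.05. Mmp2, the gelatinase that MT1-MMP activates, was at 10.72 and 10.69 in InvCREER cells and at 10.56 and 10.73 in K14CREER cells. Its difference was 0.058 (95% interval -0.32 to 0.43, limma adjusted p = 0.943), and its second probe set differed by 0.034. Beside Mmp14 at -0.99 and Timp2 at -0.012, the gene of their shared target Mmp2 thus showed no difference larger than the spread between arrays. Mmp17 was at -0.21 (limma adjusted p = 0.830) and Mmp7 at 0.13 (limma adjusted p = 0.898). Mmp24 was at 0.036 (limma adjusted p = 0.977). The direction of Mmp17 and of Mmp2 turned without K14CREER 1, to 0.047 and -0.030.

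The lists that follow were made with earlier results of these data known. Their p-values are therefore no independent tests, and nothing is read from their counts against all tested genes. Among proteins that activate, dock or restrain MMPs, 1 of 25 tested genes rose and 1 fell, and 10 had an unadjusted p under 0.05. Over all tested genes limma called 0.958% higher and 0.373% lower, and 16.1% had an unadjusted p under 0.05. Serpinb5, the gene of maspin, a serpin of epithelial cells, was at 12.38 and 12.59 in InvCREER cells and at 11.60 and 11.47 in K14CREER cells. It rose by 0.95 (SE 0.13, limma adjusted p = 0.0376), and its 3 other tested probe sets were higher too without being called. Cav1, which encodes the main protein of caveolae, was at 10.82 and 10.79 in InvCREER cells and at 12.09 on both K14CREER arrays. It fell by 1.29 (SE 0.12, limma adjusted p = 0.0148). Both calls were lost when either K14CREER array was left out. Thbs2, the gene of thrombospondin-2, a matrix glycoprotein involved in the clearance of MMP2, was at -1.79 (limma adjusted p = 0.0796), a difference that was called when either InvCREER array was left out. Lcn2, the gene of lipocalin-2, which in humans binds MMP9, was at 1.64 (limma adjusted p = 0.309), with 7.53 and 7.75 in InvCREER cells against 7.02 and 4.98 in K14CREER cells. It was called without K14CREER 1, at 2.67 (limma adjusted p = 0.0399). The median over the 25 genes was 0.074, beside -0.013 over all tested genes, and it ran from -0.019 to 0.12 with 1 array left out, turning sign without InvCREER 1.

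Of 9 tested genes of ADAM, ADAMTS and related proteases limma called 0, and 1, Bmp1, had an unadjusted p under 0.05. Over all tested genes limma called 0.958% higher and 0.373% lower, and 16.1% had an unadjusted p under 0.05. The largest differences were those of Adam8 at -1.01 (limma adjusted p = 0.468), Adamts1 at -0.79 (limma adjusted p = 0.423) and Bmp1, a procollagen-processing protease gene, at -0.57 (limma adjusted p = 0.315). Adam15 was at 0.30 (limma adjusted p = 0.673). Adam8 was at 6.35 and 6.30 in InvCREER cells and at 8.14 and 6.53 in K14CREER cells, so that K14CREER 1 was the array that set it apart. Without K14CREER 1 the differences of Adam8 and Adamts1 were -0.20 and -0.30, and without K14CREER 2 they were -1.82 and -1.27. That of Adam15 ran from 0.13 to 0.47 with 1 array left out. The median of the 9 was 0.0018, with a range of -0.35 (without InvCREER 2) to 0.072 when 1 array was left out, and -0.14 with the mean of each gene's probe sets.

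Of 30 tested transcription factors and cytokines known to act on Mmp genes, 1 fell and none rose, and 9 had an unadjusted p under 0.05. Over all tested genes limma called 0.373% lower and 0.958% higher, and 16.1% had an unadjusted p under 0.05. Snai2, the gene of the zinc finger factor Slug, was at 10.76 and 10.51 in InvCREER cells and at 11.89 and 11.78 in K14CREER cells. It fell by 1.20 (SE 0.15, limma adjusted p = 0.0290), and its second probe set was at -1.25 (limma adjusted p = 0.0565). The call was lost when either K14CREER array was left out. Larger in size but not called was the difference of the ETS factor gene Etv5, at -1.74 (limma adjusted p = 0.134). The oncostatin M receptor gene Osmr was at -1.14 (limma adjusted p = 0.102) and Ets1, another ETS factor gene, at -1.08 (limma adjusted p = 0.208). Etv5 was called without InvCREER 2 and Osmr without InvCREER 1. Of the FOS and JUN genes, a subset picked after their values were seen, 0 of 7 tested were called by limma and 1 had an unadjusted p under 0.05. Their differences ran from -0.58 for Fosl1 to 0.38 for Fos, 6 of 7 overlapped between the lines (54.7% of all tested genes did), and 5 had higher means in InvCREER. The median of the 30 genes was -0.13, and it was 0.075 without K14CREER 1 and -0.30 without K14CREER 2. This list too was made with earlier results of these data known.

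Among 17 tested genes of proteins that these proteases are known to cleave, 2 fell and none rose, and 9 had an unadjusted p under 0.05. Over all tested genes limma called 0.373% lower and 0.958% higher, and 16.1% had an unadjusted p under 0.05. Sparc was at 9.73 and 9.85 in InvCREER cells and at 12.19 and 12.11 in K14CREER cells, and fell by 2.36 (SE 0.14, limma adjusted p = 0.00612). Lamb3, the gene of a laminin chain under basal keratinocytes, was at 9.12 and 8.81 in InvCREER cells and at 11.04 and 10.42 in K14CREER cells. It fell by 1.77 (SE 0.26, limma adjusted p = 0.0440), a call lost without K14CREER 1. Tnc, the gene of tenascin-C, was at -2.01 (limma adjusted p = 0.0961), and Dcn, the gene of the proteoglycan decorin, at -1.87 (limma adjusted p = 0.0552). Both were called when either InvCREER array was left out, and Tnc also without K14CREER 2. The median of the 17 was -0.60, and 14 of them had lower means in InvCREER, as did 51.8% of all tested genes. The median was -0.24 without K14CREER 1 and -0.99 without K14CREER 2. Sparc and Lamb3 were known to differ when the list was made.

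**Figure D4:**
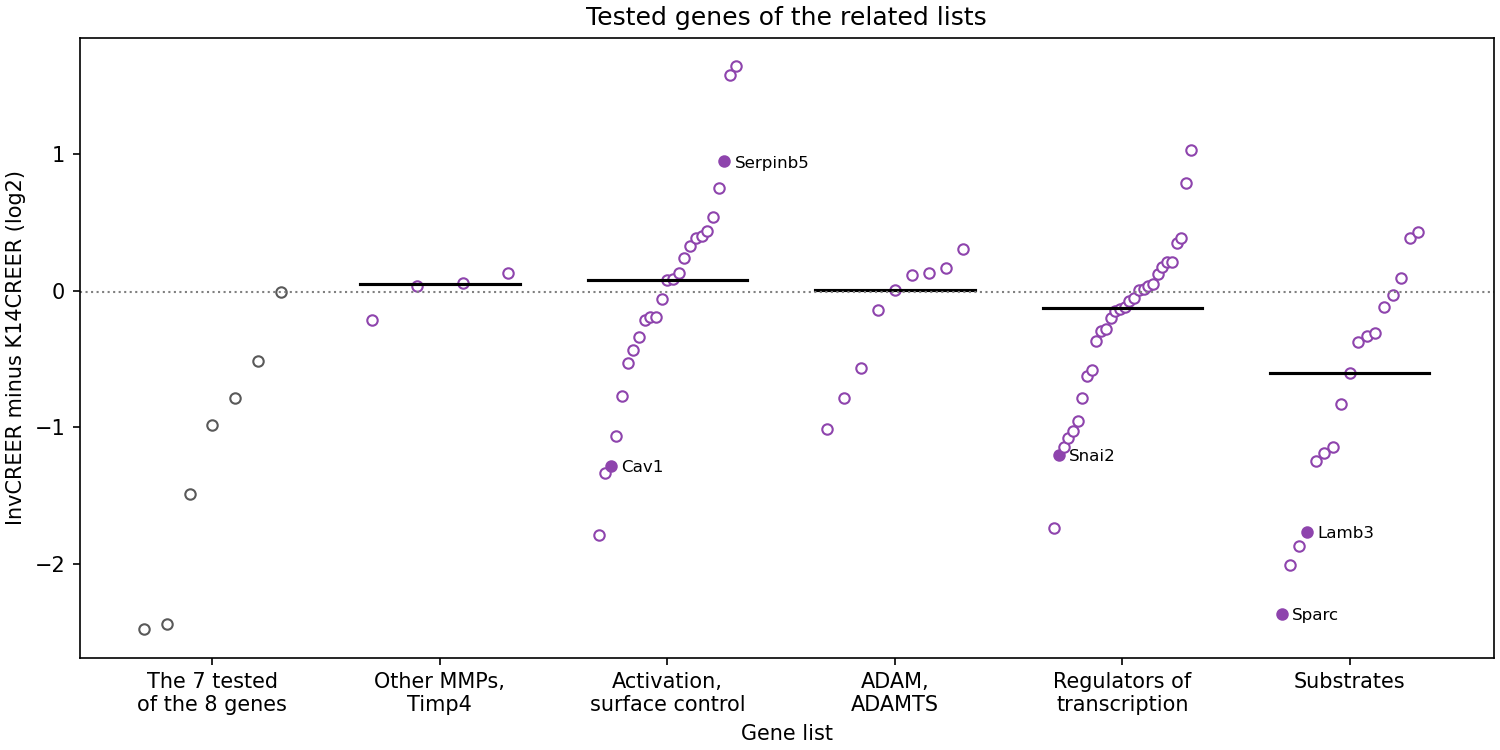
InvCREER minus K14CREER (log2, vertical axis) of each tested gene, on its brightest probe set, by gene list (horizontal axis); filled points were called by limma at an adjusted p under 0.05, thick lines are list medians and the dotted line is the median of all tested genes, -0.013. The 7 tested of the 8 genes are drawn open, without calls and without a median, and Cav1, Serpinb5, Snai2, Lamb3 and Sparc are the filled points.

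Markers of other cell types were read beside these genes. Over all probe sets 52.7% had lower means in InvCREER and 47.3% higher ones. Of 11 dermal fibroblast markers 10 had lower means in InvCREER, and their summed log2 level was 61.1 and 58.9 on the InvCREER arrays, against 70.7 and 62.0 on the K14CREER arrays. For 5 of them, the collagen genes Col1a1 and Col3a1 with Lum, Pdgfra and Dpt, the means of both lines lay under the filter value. None of the 6 tested was called by limma. The sum of this list was highest on K14CREER 1, as were Mmp10 and Timp1. Both InvCREER arrays lay under both K14CREER arrays for 4 of the 11, which held for 21.0% of all probe sets. The 4 were Dcn, Thy1 and the dim Col1a1 and Pdgfra. Dpt was higher in InvCREER without overlap, and the other markers overlapped. Dcn was at 7.09 and 7.75 in InvCREER cells against 9.50 and 9.07 in K14CREER cells. Thy1, which is also in the T cell list, was at 6.64 and 6.71 against 9.18 and 7.80. Basal keratinocyte markers differed in the same direction, with all 7 lower in InvCREER without overlap (24.1% of tested genes were) and sums of 84.7 and 83.6 in InvCREER cells against 89.8 and 89.0 in K14CREER cells. Suprabasal markers were higher in 7 of 8, and limma called 4 of the 6 tested higher, as it did 0.958% of all tested genes. The basal marker Krt15 was called lower, at -1.38 (limma adjusted p = 0.0212). The hair follicle marker Lgr6 was called lower too, at -1.79 (limma adjusted p = 0.0292), where 0.373% of all tested genes were. The other marker lists held no call. Sebaceous gland markers were higher in 8 of 8, with sums of 80.0 and 66.1 in InvCREER cells against 55.6 and 50.8 in K14CREER cells, and Langerhans and myeloid markers in 10 of 11. Lower means in InvCREER were found for 4 of 9 hair follicle, 4 of 4 T cell, 5 of 8 endothelial and mural, and 5 of 6 melanocyte markers. The part of these cells in the differences of the MMP and TIMP genes was not tested.

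**Figure D5:**
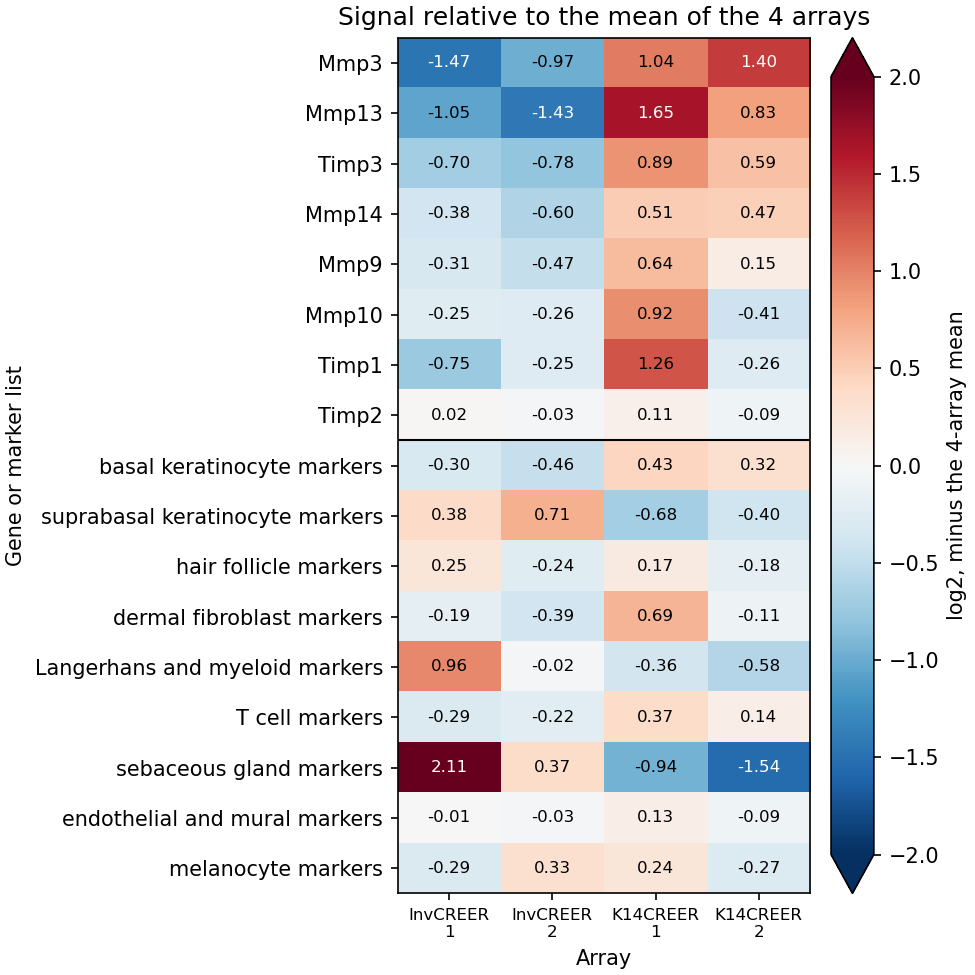
Log2 signal of each of the 8 genes (brightest tested probe set, or the one probe set of Timp1) and mean log2 signal of each marker list (rows), minus its own mean over the 4 arrays, on each array (columns; red above, blue below that mean). Mmp3, Mmp13, Timp3 and Mmp14 are above their means on both K14CREER arrays, as are basal markers, while Timp1, Mmp10 and dermal fibroblast markers are highest on K14CREER 1 and below their means on K14CREER 2.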

How the data were processed

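The labels' protocols give 100 ng of total RNA per array, amplified and labelled with a 3' in vitro transcription kit. The deposited values are log2 signals per probe set; the submitters' processing notes name Affymetrix Expression Console 1.1 and RMA. RMA equalises the distribution of signals between arrays, which hides any change in total RNA content.

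Of 45101 probe sets, 64 controls were set aside, and 22519 with a mean at or above the median of the rest (5.42) were tested. Gene names come from the platform annotation, symbols being updated to those of GRCm38.p6 by gene number. For the lists, each gene was represented by its tested probe set with the highest mean. InvCREER minus K14CREER was fitted with limma 3.58.1 in R 4.3.3 (lmFit, eBayes with trend), 2-sided. With 2 arrays per line, the smallest exact permutation p is 0.333. The number of arrays limits the precision.

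The members and lists were chosen with earlier results of these data known. Named were all 8 genes, the called genes of each related list, then its largest differences up to 4, and the 3 genes nearest to Mmp3 and Mmp13 in pattern. Filter, variance model, scaling, block, probe set choice and each array left out served as alternatives. Figures were drawn with matplotlib 3.10.9.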

Additional observations from a re-analysis of the deposited data

How the results depend on the processing

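The differences of Mmp3, Mmp9, Mmp13, Mmp14 and Timp3 stayed negative under every alternative run. Among these runs, filter, trend and block cannot move a difference of means. Leaving out 1 array or averaging probe sets cannot turn a sign where the lines do not overlap, as in these genes. That of Mmp14 was -0.80 with the mean of its 3 probe sets. Without K14CREER 1 that of Mmp10 turned to 0.15 and that of Timp1 was -0.24, and that of Timp2 ran from -0.11 to 0.088 with 1 array left out. Counts of calls moved much more. The 216 calls over all probe sets became 405 at the stricter filter (75th percentile), 122 without the variance trend, and ran from 82 to 981 with 1 array left out. Member probe sets called ran from 0 to 5 with 1 array left out and were 1 without the trend. For activation and surface control genes the count was 0 without the trend, 4 with the mean of a gene's probe sets, and 0 to 4 with 1 array left out. For regulators of transcription it was 2 at the stricter filter, 0 without the trend, 3 with the mean of the probe sets, and 0 to 3 with 1 array left out. For substrates it was 7 at the stricter filter, 1 without the trend, 8 with the mean of the probe sets, and 1 to 8 with 1 array left out. Array numbers 1 and 2 recur in both lines, and the number 1 minus number 2 differences of the lines correlated at 0.38 over tested probe sets, but with 2 pairs this does not show pairing. With the array number as a replicate block 1390 probe sets were called, 6 of them members, with 5 activation, 5 regulator and 8 substrate genes. Mmp17 and Mmp2 turned sign without K14CREER 1, at 0.047 and -0.030, and ran from -0.47 to 0.047 and from -0.030 to 0.15 with 1 array left out. A background correction could not be varied on summarised values. Fits on 3 arrays take the spread of the line with a single array from the other line.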

Other observations

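Mmp10 and Timp1 were not alone in being highest on K14CREER 1 by a wide margin. Of the tested genes of the 8 and of the related lists, 8 of 92 lay at least 1 log2 unit above the other 3 arrays on K14CREER 1, where 0.515% of all tested genes did. These were Mmp10, Adam8, Fosl1, Atf3, Hbegf, Fn1, Tnc and Igfbp3, a group picked after its values were seen. Mmp10, Fosl1 and Fn1 passed the filter only through their value on K14CREER 1. The genes and lists were also chosen with earlier results of these data known, so nothing is read from these counts. Tnc was also higher on K14CREER 2, at 7.87, than on the InvCREER arrays, at 6.67 and 6.30. Fn1, the fibronectin gene, was at 5.15 and 4.80 in InvCREER cells and at 7.02 and 5.21 in K14CREER cells. Hbegf, the gene of an EGF receptor ligand that metalloproteases release from the cell surface, was at 7.23 and 7.57 in InvCREER cells and at 9.07 and 7.64 in K14CREER cells. Below the filter, Timp1, Il1a and Col3a1 also lay at least 1 log2 unit above the other 3 arrays on K14CREER 1. For K14CREER 2 the count was 2 of 92, where 0.275% of all tested genes did so. For InvCREER 1 and InvCREER 2 it was 0 of 92 each, where 0.781% and 0.142% of all tested genes did.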
